A study of Mus musculus with 9 samples.

Results

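The serotonin receptor genes Htr1a, Htr1b, Htr1d, Htr1f, Htr2a, Htr2c, Htr3a, Htr4, Htr5a, and Htr7 were followed in the mouse brain after intracerebral hemorrhage (ICH). These 10 genes were chosen by name as members of the serotonin receptor family, and they are 10 of the 38621 genes in the deposited table. All 10 passed the filter on low values. Total RNA of male C57BL/6 mouse brain, depleted of ribosomal RNA, was sequenced in 9 mice, with 3 mice per group. Sham mice were injected with saline in the paper's description and are called untreated in the labels, ICH mice were injected with their own blood, and feb mice were given febuxostat, an inhibitor of xanthine oxidase, by gavage on the days before the same blood injection. The dissected region and the time after injection are not given for the sequenced tissue, and no group received febuxostat without ICH.

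Serotonin is made by neurons of the brainstem raphe nuclei, whose axons reach most of the brain. Its receptors are therefore found on the receiving cells as well as on the serotonin neurons themselves. All of them are G protein-coupled receptors except the Htr3 subunits, which form a cation channel. Htr1 and Htr5 receptors signal through Gi/o proteins and lower cyclic AMP, Htr2 receptors signal through Gq and phospholipase C, and Htr4, Htr6, and Htr7 receptors signal through Gs and raise cyclic AMP.

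Htr7 mRNA, which encodes a Gs-coupled receptor abundant in the thalamus, was lower in all 3 ICH mice than in any sham mouse, and higher in all 3 feb mice than in any ICH mouse. Htr2a, a Gq-coupled receptor of cortical pyramidal neurons, was higher in every ICH mouse than in any sham mouse. Htr1d, a Gi/o-coupled autoreceptor, was lower in every feb mouse than in any ICH mouse. Each of these differences had an unadjusted p under 0.05 in limma, and none had an adjusted p under 0.05. On the log2(RPKM + 0.1) scale used for the test, none reached a 2-fold change. With 0.01 added in place of 0.1, Htr1d was past it, at a log2 fold change of -1.04. Groups without overlap were about as frequent among all genes tested as among the receptors: 2 of the 10 receptor genes against 19.4% of all genes between ICH and sham, 2 against 17.2% between feb and ICH, and 1, Htr2c, against 12.7% between feb and sham. An unadjusted p under 0.05 was found for 12.3%, 11.1%, and 8.54% of all genes in these contrasts, against 2, 2, and 0 receptor genes. The differences above are given as descriptions of single genes. The other 7 receptor genes had an unadjusted p over 0.05 in every contrast.

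The promoter sequences of these 3 genes are shown because they were the receptor genes with an unadjusted p under 0.05. The windows are RefSeq sequences on GRCm38.p6, from 250 bases before to 50 bases after an annotated start, written 5′ to 3′ on the strand of the gene. Capitals mark a GC box, the letters GGGCGG on either strand. The Htr7 window is chr19:36057311-36057610 on the minus strand, the Htr2a window is chr14:74640624-74640923 on the plus strand, and the Htr1d window is chr4:136423274-136423573 on the plus strand.
Htr7: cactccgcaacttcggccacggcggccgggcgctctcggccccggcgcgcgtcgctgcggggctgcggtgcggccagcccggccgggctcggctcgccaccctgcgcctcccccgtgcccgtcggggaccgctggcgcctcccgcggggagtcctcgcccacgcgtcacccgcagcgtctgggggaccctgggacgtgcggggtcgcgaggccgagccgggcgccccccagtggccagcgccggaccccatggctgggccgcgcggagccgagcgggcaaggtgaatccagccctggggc
Htr2a: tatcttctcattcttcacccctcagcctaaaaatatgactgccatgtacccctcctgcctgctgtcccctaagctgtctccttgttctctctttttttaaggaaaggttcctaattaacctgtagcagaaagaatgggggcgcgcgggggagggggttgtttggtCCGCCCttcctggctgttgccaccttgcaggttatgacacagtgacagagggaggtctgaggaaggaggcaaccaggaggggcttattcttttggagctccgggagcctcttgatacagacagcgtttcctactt
Htr1d: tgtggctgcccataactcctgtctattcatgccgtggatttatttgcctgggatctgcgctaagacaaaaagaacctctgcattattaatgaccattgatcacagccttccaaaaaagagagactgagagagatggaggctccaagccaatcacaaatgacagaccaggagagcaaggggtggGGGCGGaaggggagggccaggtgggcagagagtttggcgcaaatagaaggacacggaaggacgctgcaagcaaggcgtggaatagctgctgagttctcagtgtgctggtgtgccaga

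The Htr7 window differs in composition from those of Htr2a and Htr1d. Its GC content was 81.0% and its ratio of observed to expected CpG was 0.94, while the Htr2a and Htr1d windows both had 52.0% GC, with CpG ratios of 0.3 and 0.36. The medians of all 32851 windows in the table were 52.7% and 0.38. The Htr2a and Htr1d windows hold 1 GC box each and the Htr7 window holds none. Of the 8 members with a window in the table (Htr3a and Htr4 had no entry), 4 hold a GC box, compared with 35.7% of all windows, and 0 hold the TATA box TATAAA on either strand, compared with 13.6%. The Htr7 window is set on a start that lies 147 bases inside the deposited gene, so most of this window lies within that gene. The start used for Htr2a lies 34 bases inside its deposited gene, and that of Htr1d lies 0 bases from the deposited start. The compositions therefore compare stretches placed differently around the deposited starts.

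Between 23065757 and 29538009 reads per mouse were counted on genes. Levels are given as RPKM, which scales the reads of each mouse to the length of the exons and to the depth of the library, so the levels of different genes can be compared per length. The members had between 12 and 1019 reads in a mouse, and counting error is therefore larger for Htr3a (12 to 76 reads) and Htr1d (26 to 83 reads) than for Htr2c (568 to 1019 reads). The libraries differed in markers of brain regions. Sham mouse 1 had a Hoxb5 RPKM of 3.14, and this hindbrain gene was listed at 0 in the other 8 mice. The 2 tested hindbrain and midbrain markers were also high in other mice. Their mean log2 value was 1.03 in sham mouse 1, 0.5 in feb mouse 2, and -0.22 in sham mouse 3, compared with -2.96 to -2.39 in the remaining mice. The striatal markers of sham mouse 1 were the lowest (mean log2 value 1.57, compared with 3.13 to 4.85 in the other mice). All 5 cortical excitatory neuron markers rose from sham to ICH mice (summed RPKM 14.7 to 35.3 in sham, 51.0 to 108 in ICH, and 37.8 to 55.4 in feb mice). From ICH to feb mice 4 of the 5 fell and 1 rose. All 8 choroid plexus markers fell from ICH to feb mice (365 to 1030 in sham, 458 to 967 in ICH, and 30.6 to 88.4 in feb mice). No marker of the cortical, thalamic, striatal, hippocampal, or choroid plexus lists was at 0 in all mice of a group. The part of these differences in the receptor results was not tested. In brain tissue, fewer cells of a type and less RNA per cell cannot be told apart.

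Htr1b had the highest mean RPKM over the 9 mice (4.69 ± 1.43, SD, n = 9), followed by Htr2c (3.04 ± 0.566, SD, n = 9), Htr1a (2.85 ± 0.909, SD, n = 9), and Htr7 (2.61 ± 0.752, SD, n = 9). Htr2c was above Htr1a in 7 of the 9 mice and Htr1a was above Htr7 in 4 of them, so the order of these 3 genes is within their spread. Htr5a (1.6 ± 0.299, SD, n = 9) and Htr1f (1.34 ± 0.403, SD, n = 9) were lower, and Htr2a was next (0.997 ± 0.346, SD, n = 9). The lowest were Htr4 (0.666 ± 0.21, SD, n = 9), Htr1d (0.621 ± 0.272, SD, n = 9), and Htr3a (0.571 ± 0.38, SD, n = 9), and Htr4 exceeded Htr1d in 6 mice while Htr1d exceeded Htr3a in 4. These 3 genes are likewise not separated beyond their spread. The steadiest receptors between mice were Htr5a and Htr2c, whose highest values were 1.62 and 1.65 times their lowest. Htr3a varied most, with a ratio of 6.31.

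**Figure D1:**
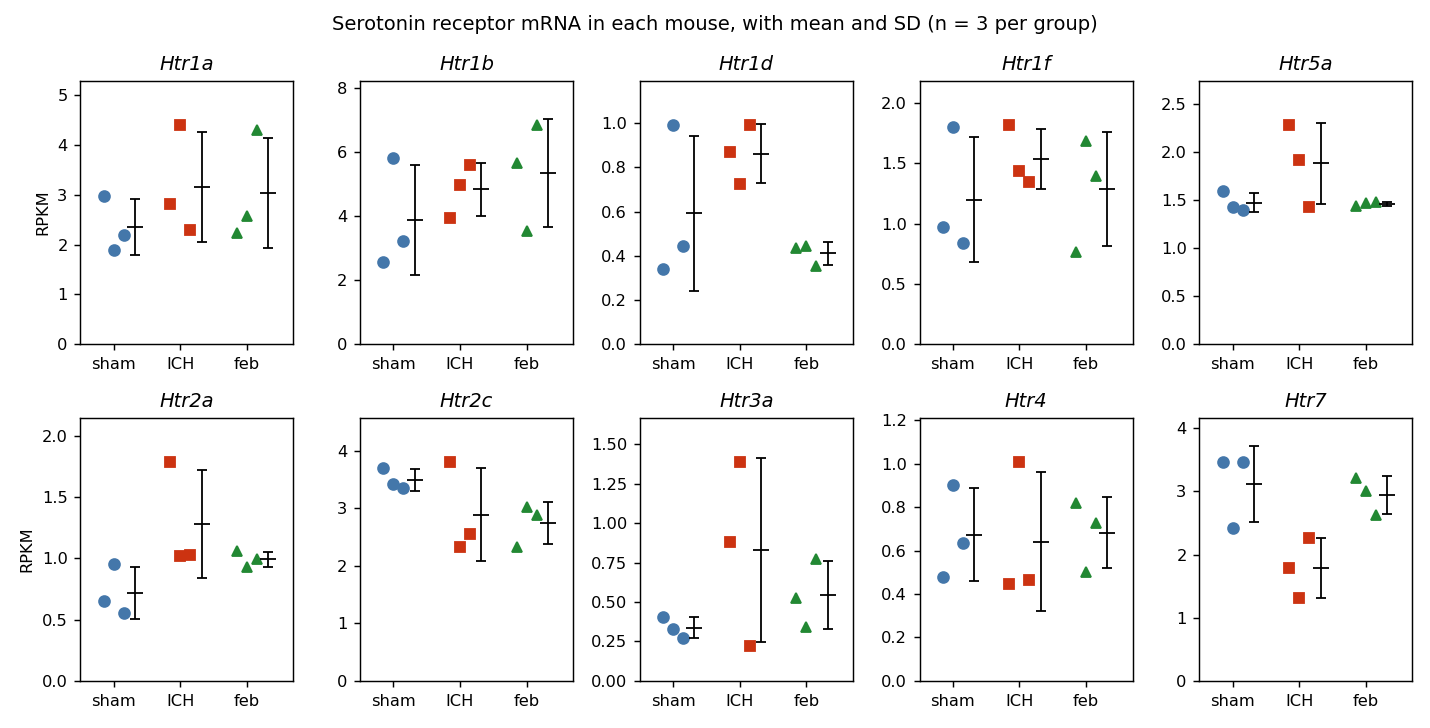
RPKM of the 10 serotonin receptor genes in each mouse. Points are mice, circles for sham, squares for ICH, and triangles for feb, and the bars beside them are the mean and SD of 3 mice. The Htr7 points of the ICH group (1.31 to 2.26) lie below all points of the sham group (2.42 to 3.47) and the feb group (2.63 to 3.21).

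The first comparison asked how receptor mRNA differed after hemorrhage. Of the 29025 genes tested between ICH and sham mice, 735 or 2.53% passed an unadjusted p under 0.05 with a fold change over 2, and 0 of the 10 receptor genes did. With the p alone, 2 receptor genes passed (Htr2a higher and Htr7 lower), compared with 12.3% of all genes, and limma with voom on the recovered reads called 0 by both criteria. The log2 fold change was positive for 7 receptor genes and negative for 3, with a median of 0.38, and the median of all genes tested was 0.08. The groups did not overlap for 2 receptor genes (Htr2a and Htr7), compared with 19.4% of all genes. The lowest adjusted p of a receptor gene was 0.341, while 7 of all genes, 0.0241%, had one under 0.05.

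The second comparison asked how pretreatment with febuxostat altered these levels after hemorrhage. Between feb and ICH mice, 706 genes or 2.43% were called, and 0 receptor genes were. With the p alone, 2 receptor genes passed (Htr7 higher and Htr1d lower), compared with 11.1% of all genes. Limma with voom called 1 receptor gene, Htr1d (log2 fold change -1.04, adjusted p = 0.337). The log2 fold change was positive for 3 receptor genes and negative for 7, with a median of -0.18, compared with -0.01 for all genes. The groups did not overlap for Htr1d and Htr7, compared with 17.2% of all genes. Adjusted p-values under 0.05 were found for 2 of all genes (0.00689%) and for 0 receptor genes, whose lowest was 0.316. The ICH mice are shared by this comparison and the first, so opposite signs in them are not independent.

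Between feb and sham mice, 639 genes or 2.2% were called. No receptor gene was called by limma or by voom, and 0 had an unadjusted p under 0.05, compared with 8.54% of all genes. Only 1 of all genes, 0.00345%, had an adjusted p under 0.05. The log2 fold change was positive for 6 receptor genes and negative for 4, with a median of 0.06, and the median of all genes was 0.05. When the samples were scaled to equal medians or quantile-normalized, Htr1f and Htr4 turned negative and the split was 4 to 6. The groups did not overlap for Htr2c alone, which was lower in feb mice, compared with 12.7% of all genes.

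**Figure D2:**
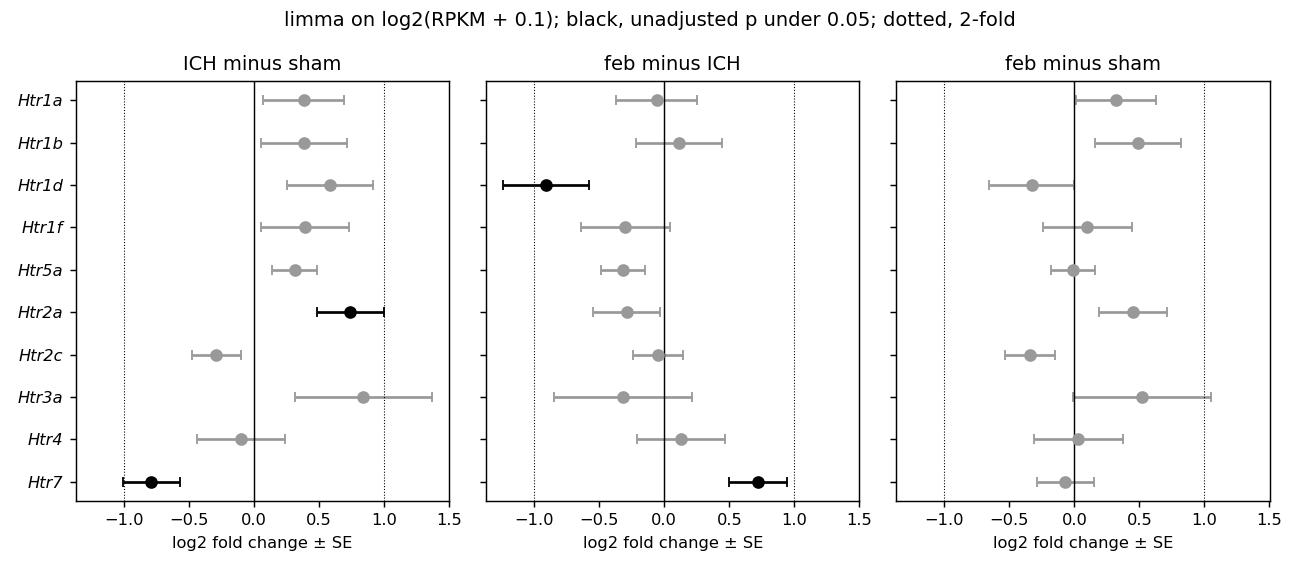
Log2 fold change of each receptor gene in the 3 contrasts, with its SE, from limma on log2(RPKM + 0.1) with 3 mice per group. Black points have an unadjusted p under 0.05 (Htr2a and Htr7 in ICH minus sham, Htr1d and Htr7 in feb minus ICH), and no point lies beyond the dotted lines at a 2-fold change.

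Among the Gi/o-coupled receptors, Htr1a is the autoreceptor on the cell bodies of serotonin neurons and a postsynaptic receptor in hippocampus and cortex. It lies on chromosome 13 from 105443693 to 105448133 on the plus strand (GRCm38, as for all positions given here), and it is protein coding in GENCODE, as are the other 9 members. The Htr1a RPKM was 2.97, 1.9, and 2.19 in sham mice, 2.81, 4.4, and 2.29 in ICH mice, and 2.23, 2.58, and 4.29 in feb mice. One ICH mouse and one feb mouse were high, and all groups overlapped. ICH exceeded sham by 0.38 ± 0.31 on the log2 scale (SE, adjusted p = 0.594), and the log2 difference between feb and ICH was -0.06 ± 0.31 (SE, adjusted p = 0.956). The ICH difference was 0.13 without ICH mouse 2, 0.25 without sham mouse 2, and 0.58 without ICH mouse 3.

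Htr1b is a receptor on nerve terminals that limits release of serotonin and other transmitters, and it is abundant in striatal projection neurons. It lies on chromosome 9 from 81628291 to 81633828 on the minus strand. Its RPKM was 2.57, 5.82, and 3.24 in sham mice, 3.95, 4.97, and 5.6 in ICH mice, and 5.66, 3.53, and 6.86 in feb mice. The sham mice held both the lowest value and the second highest, and the groups overlapped. Its log2 fold change was 0.38 ± 0.33 (SE, adjusted p = 0.62) for ICH against sham and 0.49 ± 0.33 (SE, adjusted p = 0.681) for feb against sham. With each mouse left out, these values ranged from 0.14 (without sham mouse 1) to 0.71 (without sham mouse 2, adjusted p = 0.236 in limma) and from 0.24 (without sham mouse 1) to 0.82 (without sham mouse 2, adjusted p = 0.325). Htr1b shares 852 exon bases with D430036J16Rik, a gene on the opposite strand. The RPKM of D430036J16Rik was 1.68, 5.46, and 2.79 in sham, 3.53, 3.64, and 4.53 in ICH, and 4.63, 3.26, and 7.14 in feb mice, and it was lowest and highest in the same mice as Htr1b. The libraries were made with a stranded kit, but whether strand was used in counting is not stated, and without it reads of the shared bases could belong to either gene.

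Htr1d is a further autoreceptor of nerve terminals and a target of the triptan drugs. It lies on chromosome 4 from 136423524 to 136444398 on the plus strand. Its RPKM was 0.338, 0.992, and 0.445 in sham mice, 0.868, 0.725, and 0.99 in ICH mice, and 0.437, 0.445, and 0.352 in feb mice. All feb mice lay below all ICH mice, and the sham mice ranged over both. Feb minus ICH was -0.91 ± 0.33 on the log2 scale (SE, limma p = 0.0239, adjusted p = 0.391), and an exact two-sided permutation test gave the smallest p that 3 against 3 mice allow, 0.1. The mean RPKM was 0.861 in ICH and 0.411 in feb mice. The log2 fold change was past the 2-fold limit without ICH mouse 2 (-1.01), and with 0.01 added to the RPKM in place of 0.1 or with voom (-1.04). The unadjusted limma p rose to 0.0547 without ICH mouse 1, 0.0718 without ICH mouse 3, and 0.0671 without feb mouse 3.

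The triptan-sensitive receptor Htr1f lies on chromosome 16 from 64924729 to 65105784 on the minus strand. Htr1f had an RPKM of 0.972, 1.8, and 0.837 in sham mice, 1.82, 1.44, and 1.35 in ICH mice, and 0.768, 1.69, and 1.4 in feb mice. Its groups overlapped in every contrast, and its log2 fold change between ICH and sham was 0.39 ± 0.34 (SE, adjusted p = 0.623). That value was 0.19 without sham mouse 3 and 0.7 without sham mouse 2. Htr5a, a neuronal receptor of cortex and hippocampus, lies on chromosome 5 from 27842149 to 27855088 on the plus strand. The Htr5a RPKM was 1.59, 1.43, and 1.4 in sham mice, 2.28, 1.92, and 1.43 in ICH mice, and 1.44, 1.47, and 1.48 in feb mice. The sham and feb mice were nearly level and only ICH mice 1 and 2 stood above them. Htr5a had a log2 fold change of 0.31 ± 0.17 (SE, adjusted p = 0.467) for ICH against sham and -0.32 ± 0.17 (SE, adjusted p = 0.52) for feb against ICH. Without ICH mouse 3 these values were 0.48 and -0.49, with adjusted p of 0.348 and 0.368 in limma, and without ICH mouse 1 they were 0.16 and -0.17.

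Htr2a is the main excitatory serotonin receptor of the cortex and the target of psychedelic drugs. The gene lies on chromosome 14 from 74640840 to 74706859 on the plus strand. Its RPKM was 0.65, 0.953, and 0.551 in sham mice, 1.79, 1.02, and 1.03 in ICH mice, and 1.06, 0.933, and 0.992 in feb mice. Every ICH mouse was above every sham mouse, by a small margin for the highest sham mouse, and the feb mice lay close together near the lower ICH values. ICH exceeded sham by 0.74 ± 0.26 on the log2 scale (SE, limma p = 0.0204, adjusted p = 0.366; exact permutation p = 0.1). This unadjusted limma p was 0.0557 without sham mouse 1, 0.0756 without sham mouse 3, and 0.0755 without ICH mouse 1, and without ICH mouse 1 the log2 fold change was 0.49. The 5 cortical markers rose in the same contrast, with log2 fold changes from 1.38 to 2.51, and their part in the Htr2a difference was not tested.

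Htr2c is expressed in neurons and is abundant in the epithelium of the choroid plexus, and its mRNA undergoes A-to-I editing in a coding exon, which RPKM does not show. It lies on chromosome X from 146962513 to 147197277 on the plus strand. Its RPKM was 3.7, 3.42, and 3.35 in sham mice, 3.81, 2.32, and 2.55 in ICH mice, and 2.33, 3.02, and 2.88 in feb mice. All feb mice lay below all sham mice, and the ICH mice ranged over both groups. In log2 units, Htr2c differed by -0.34 ± 0.19 (SE, adjusted p = 0.638) for feb against sham, -0.29 ± 0.19 (SE, adjusted p = 0.517) for ICH against sham, and -0.05 ± 0.19 (SE, adjusted p = 0.941) for feb against ICH. Without ICH mouse 1 the value for ICH against sham was -0.5 (adjusted p = 0.496), and without ICH mouse 2 it was -0.15 (adjusted p = 0.807). The choroid plexus markers had a median log2 fold change of -2.39 between feb and ICH, a contrast in which the Htr2c groups overlapped. Because the feb mice form a separate cluster in these markers, the relation was computed in the 6 sham and ICH mice, where Pearson's r was 0.08 (exact permutation p = 0.9) and Spearman's rho was 0.43 (exact permutation p = 0.42).

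Htr3a encodes the channel subunit that all Htr3 receptors need, and in the forebrain it marks a class of interneurons. The gene lies on chromosome 9 from 48899213 to 48911099 on the minus strand. Its RPKM was 0.406, 0.331, and 0.273 in sham mice, 0.882, 1.39, and 0.22 in ICH mice, and 0.526, 0.342, and 0.77 in feb mice. ICH mice 1 and 2 were the highest of the 9 mice and ICH mouse 3 was the lowest. ICH exceeded sham by 0.84 ± 0.53 on the log2 scale (SE, adjusted p = 0.509). Without ICH mouse 3 the difference was 1.48 ± 0.35 (SE, adjusted p = 0.324 in limma) and passed both criteria, and without ICH mouse 2 it was 0.37.

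Htr4 is a Gs-coupled receptor of hippocampus and striatum. It lies on chromosome 18 from 62324204 to 62467802 on the plus strand. Its RPKM was 0.48, 0.904, and 0.634 in sham mice, 0.447, 1.01, and 0.467 in ICH mice, and 0.819, 0.502, and 0.726 in feb mice. The group means were nearly equal, at 0.673 ± 0.215 (SD, n = 3), 0.642 ± 0.321 (SD, n = 3), and 0.682 ± 0.163 (SD, n = 3) in the same order. Its log2 fold changes lay between -0.1 and 0.13, each with an SE of 0.34, and the lowest adjusted p was 0.906.

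Htr7 is the other Gs-coupled member, found in thalamus, hypothalamus, and hippocampus. It lies on chromosome 19 from 35958734 to 36057507 on the minus strand. Its RPKM was 3.47, 2.42, and 3.46 in sham mice, 1.78, 1.31, and 2.26 in ICH mice, and 3.21, 3.0, and 2.63 in feb mice. The ICH mice formed the lowest 3 values of the 9, and the sham and feb mice overlapped. These values rest on 117 to 348 reads per mouse. Log2 fold changes of Htr7 were -0.79 ± 0.22 (SE, adjusted p = 0.341 in limma) for ICH against sham, 0.72 ± 0.22 (SE, adjusted p = 0.316) for feb against ICH, and -0.07 ± 0.22 (SE, adjusted p = 0.943) for feb against sham. An exact two-sided permutation test of either of the first 2 contrasts gave 0.1, the smallest p possible with 3 against 3 mice. The unadjusted limma p stayed under 0.05 in all 18 alternatives of both contrasts, and the adjusted p ranged from 0.101 to 0.733 and from 0.247 to 0.634. Without sham mouse 1 the ICH value was -0.7, and without ICH mouse 2 the values were -0.59 and 0.53.

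By signaling class, the 5 Gi/o-coupled genes held a mean share of the summed receptor RPKM of 52.8% ± 6.02 for sham, 62.4% ± 4.39 for ICH, and 58.9% ± 4.69 for feb (± SD over 3 mice, here and for the other classes). The shares of the Gs-coupled genes Htr4 and Htr7 were 21.6% ± 4.38, 12.4% ± 2.24, and 18.9% ± 3.53. Their summed RPKM was 3.95, 3.32, and 4.1 in sham mice, 2.23, 2.32, and 2.73 in ICH mice, and 4.03, 3.5, and 3.35 in feb mice. The ICH sums lay below all others, as Htr7 alone did, and Htr7 makes up most of each sum. The 2 Gq-coupled genes held 23.7% ± 1.74, 21.1% ± 5.7, and 19.4% ± 2.8, and the channel gene Htr3a held 1.9% ± 0.41, 4.1% ± 2.79, and 2.75% ± 0.748. The RPKM of all 10 genes together was 17.8 ± 1.89, 19.7 ± 1.31, and 19.5 ± 2.58. These totals overlapped between the groups, at 16.4 to 20.0 in sham, 18.2 to 20.5 in ICH, and 17.5 to 22.4 in feb mice, and were not tested.

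**Figure D3:**
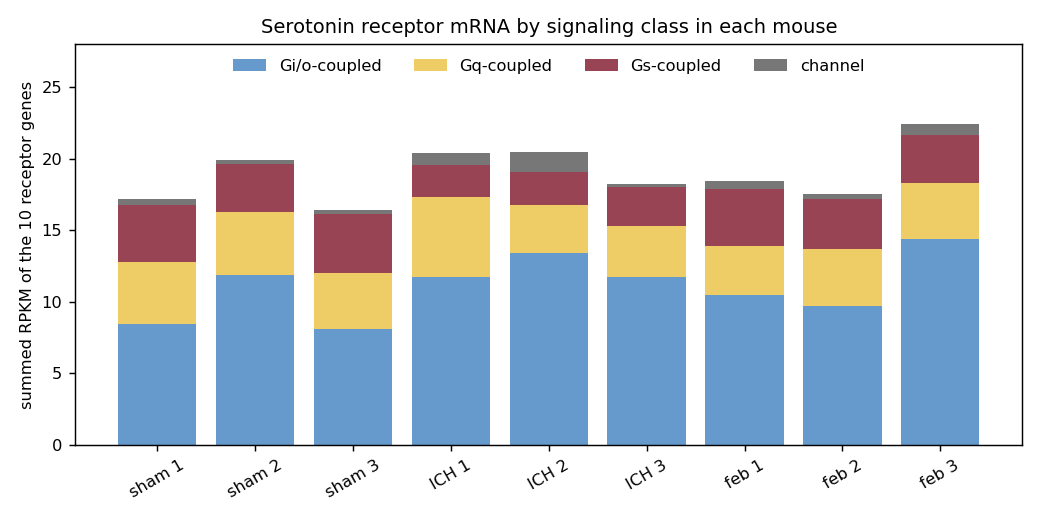
Summed RPKM of the 10 receptor genes in each mouse, stacked by signaling class. The Gs-coupled layer is thinnest in the 3 ICH mice (2.23 to 2.73, compared with 3.32 to 4.1 in sham and 3.35 to 4.03 in feb mice).

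The receptor levels were set beside the mean log2 level of 4 lists of regional markers in the 9 mice, as 40 relations of 10 genes with 4 lists. Of these, 9 had an exact permutation p under 0.05 for Pearson's r and 0 had an adjusted p under 0.05. The mice share their libraries between all relations, and they include the groups compared above. Htr7 was higher where the thalamus and midbrain markers were higher, with r = 0.84 (exact permutation p = 0.0075, adjusted p = 0.061) and rho = 0.58 (exact permutation p = 0.11, adjusted p = 0.33). When the 2 mice with the most extreme marker levels (ICH mouse 2 and feb mouse 3) were left out, r was 0.77 (exact permutation p = 0.039). The correlation of deviations from the group means was 0.79. Htr7 was also lower where the cortical markers were higher, with r = -0.64 (exact permutation p = 0.061, adjusted p = 0.22) and rho = -0.68 (exact permutation p = 0.05, adjusted p = 0.18). Without the 2 farthest mice (sham mice 2 and 3) that r was -0.86 (exact permutation p = 0.013), and the correlation of deviations was -0.12. Of these 2 relations, the first was thus kept within the groups and the second was not. Whether the level of Htr7 follows either list was not tested. The summed RPKM of the thalamus and midbrain markers was 132 to 192 in sham, 30.7 to 143 in ICH, and 72.5 to 176 in feb mice. All 5 of them were lower in ICH than in sham. Of these 1, Tcf7l2, was called, compared with 2.53% of all genes tested, and the lowest adjusted p in limma was 0.382. The part of these markers in the Htr7 difference was not tested.

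Htr3a ran the other way against the same markers, with r = -0.92 (exact permutation p = 0.0015, adjusted p = 0.055), rho = -0.75 (exact permutation p = 0.025, adjusted p = 0.13), and r = -0.79 (exact permutation p = 0.053) without the 2 farthest mice. Htr1a had r = -0.84 (exact permutation p = 0.0065, adjusted p = 0.061), rho = -0.77 (exact permutation p = 0.021, adjusted p = 0.13), and r = -0.47 (exact permutation p = 0.3) without the 2 farthest mice, so this relation rests on them. Htr1b was higher where the striatal markers were higher, with r = 0.85 (exact permutation p = 0.0027, adjusted p = 0.055) and rho = 0.77 (exact permutation p = 0.021, adjusted p = 0.13). Without the 2 farthest mice (sham mice 1 and 2) its r was 0.72 (exact permutation p = 0.074). Htr1b had a similar relation with the hippocampal markers, with r = 0.82 (exact permutation p = 0.01, adjusted p = 0.069), rho = 0.77 (exact permutation p = 0.021, adjusted p = 0.13), and r = 0.83 (exact permutation p = 0.016) without the 2 farthest mice, so its level cannot be tied to the striatal markers alone. Htr4 followed the hippocampal markers, with r = 0.85 (exact permutation p = 0.0076, adjusted p = 0.061), rho = 0.78 (exact permutation p = 0.017, adjusted p = 0.13), and r = 0.83 (exact permutation p = 0.026) without the 2 farthest mice. The remaining 3 relations were those of Htr5a, Htr2c, and Htr1d. Htr5a and the thalamus and midbrain markers had r = -0.7 (exact permutation p = 0.037, adjusted p = 0.17), rho = -0.75 (exact permutation p = 0.025, adjusted p = 0.13), and r = -0.94 (exact permutation p = 0.0095) without the 2 farthest mice. Htr2c and the hippocampal markers had r = -0.71 (exact permutation p = 0.038, adjusted p = 0.17), rho = -0.82 (exact permutation p = 0.011, adjusted p = 0.13), and r = -0.66 (exact permutation p = 0.1) without those mice. Htr1d and the striatal markers had r = 0.7 (exact permutation p = 0.026, adjusted p = 0.15), rho = 0.68 (exact permutation p = 0.05, adjusted p = 0.18), and r = 0.54 (exact permutation p = 0.2) without them. The correlation of Htr2a with the cortical markers was 0.54 (exact permutation p = 0.13, adjusted p = 0.34), with rho = 0.52 (exact permutation p = 0.16, adjusted p = 0.46) and r = 0.29 (exact permutation p = 0.55) without the 2 farthest mice. The correlation of deviations from the group means was -0.18 for this pair. For the other relations of this paragraph it was -0.93 for Htr3a, -0.87 for Htr1a, and 0.97 for Htr4. It was 0.89 for Htr1b with the striatal and 0.78 with the hippocampal markers. For Htr5a, Htr2c, and Htr1d it was -0.51, -0.63, and 0.81.

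**Figure D4:**
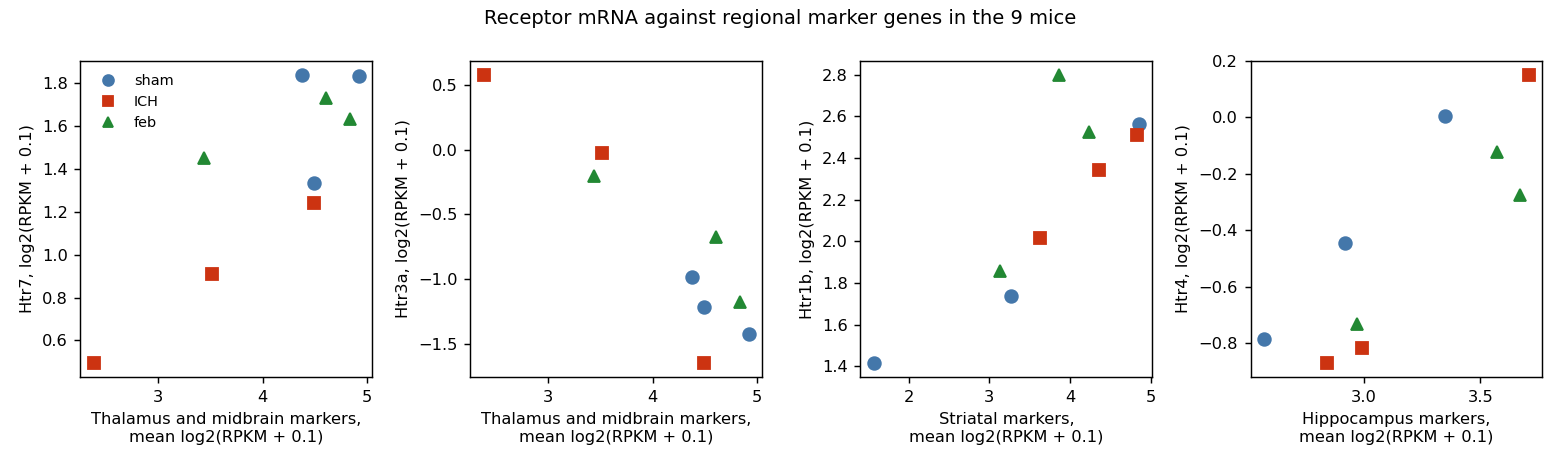
Level of a receptor gene (y axis, log2(RPKM + 0.1)) against the mean level of regional marker genes (x axis, mean log2(RPKM + 0.1)) in the 9 mice, with circles for sham, squares for ICH, and triangles for feb. Htr7 is higher (r = 0.84) and Htr3a lower (r = -0.92) where the thalamus and midbrain markers are high, Htr1b is higher with the striatal markers (r = 0.85), and Htr4 is higher with the hippocampal markers (r = 0.85), none with an adjusted p under 0.05.

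The genes whose pattern over the 9 mice was most like that of a member were taken from 13324 genes with a mean RPKM of at least 1, by Pearson's r of log2(RPKM + 0.1), for the 4 members whose groups did not overlap in a contrast. For Htr7 these were Relt (r = 0.971), Tox2 (r = 0.968), and Btbd11 (r = 0.966). Those most like Htr1d were Ppp2r1b (r = 0.977), Dusp8 (r = 0.973), and Dusp14 (r = 0.97). For Htr2a they were Zzef1 (r = 0.96), Polb (r = 0.951), and Bcat2 (r = 0.944), and for Htr2c they were Ptchd2 (r = 0.967), Gne (r = 0.926), and Acsf2 (r = 0.921). With 9 mice and so many candidates, high values of r are selected, and they are given as a description.

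The other serotonin receptor genes were Htr2b, Htr3b, Htr5b, and Htr6. Htr3b, the second channel subunit, had at most 2 reads in a mouse and was not tested. The Gs-coupled receptor Htr6 ranged from 0.608 to 1.77 RPKM, Htr5b from 0.138 to 1.04, and Htr2b from 0.81 to 1.63, with 252 exon bases of Htr2b shared with Psmd1 on the opposite strand. None of the 3 tested genes was called in any contrast, and their lowest adjusted p was 0.67.

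Not all genes of serotonin neurons were low in this tissue. Slc18a2 lay between 1.2 and 2.83 RPKM and Ddc between 1.43 and 7.61, while Tph2 and Slc6a4 were low. The RPKM of Tph2, the serotonin-synthesizing enzyme of the brain, was between 0.0262 and 0.553, and that of the serotonin transporter Slc6a4 was at most 0.112. They were highest in sham mouse 1 and next highest in feb mouse 2 (0.303 and 0.0437). Of the 8 tested genes for serotonin synthesis, transport, and breakdown, 0 were called between ICH and sham and 1, Ddc, was called between feb and ICH. Over all genes tested, 2.53% and 2.43% were called in these contrasts. Ddc encodes the decarboxylase that completes both serotonin and dopamine synthesis. Its RPKM was 3.31, 1.93, and 5.58 in sham, 2.83, 1.43, and 1.85 in ICH, and 7.61, 2.74, and 7.42 in feb mice. Feb exceeded ICH by 1.41 ± 0.48 on the log2 scale (SE, adjusted p = 0.368), with groups that overlapped, and the unadjusted limma p rose over 0.05 without ICH mouse 2 (0.0617), feb mouse 1 (0.0644), or feb mouse 3 (0.0629). Maoa, which breaks serotonin down, lay between 7.16 and 10.2.

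Downstream of the receptors, 0 of 9 Gi/o protein and GIRK channel genes, 0 of 7 Gq and phospholipase C genes, 0 of 9 Gs and adenylyl cyclase genes, and 0 of 8 receptor partner and RNA editing genes were called in any contrast. With the p alone, 3, 3, 1, and 0 of them passed between ICH and sham, 1, 0, 1, and 0 between feb and ICH, and 0, 0, 1, and 0 between feb and sham. Over all genes tested, 12.3%, 11.1%, and 8.54% passed with the p alone in these contrasts. Between ICH and sham, the Gi/o and Gs genes that passed were higher in ICH mice, and 2 of the Gq genes were higher and 1 lower. Those that passed between feb and ICH were lower in feb mice, and the 1 between feb and sham was higher. The highest of the G protein genes was Gnas (mean RPKM 73.0 over the 9 mice), which encodes the Gs alpha subunit used by Htr4 and Htr7. Among the partners, S100a10, which binds Htr1b and Htr4, was 7.26, 5.3, and 4.2 in sham, 7.78, 26.9, and 4.95 in ICH, and 5.61, 3.99, and 6.01 in feb mice, with ICH mouse 2 far above the rest. Adar and Adarb1, whose enzymes edit Htr2c mRNA, lay between 25.6 and 29.8 and between 17.8 and 48.9.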

How the data were processed

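The authors trimmed the reads with Trimmomatic (0.36), merged reads with the same UMI to a consensus, aligned them to GRCm38, obtained exon counts from featureCounts (Subread 1.5.1), and deposited RPKM values, 1 column per mouse. Ribosomal RNA was depleted from total RNA before library preparation, and the library kit was stranded. The annotation release and whether counting used strand are not given in the sources used here. The authors tested genes with edgeR (3.12.1), which needs counts and was not used here. Contrasts were tested with limma 3.58.1 in R 4.3.3 (lmFit and eBayes with trend) on log2(RPKM + 0.1) in all 9 samples, for the 29025 genes that reached an RPKM of 0.1 in 3 or more samples. This scale understates the change of low genes. A called gene had an unadjusted p under 0.05 and more than a 2-fold change. Adjusted p-values follow Benjamini and Hochberg across all genes tested, or across the 40 relations for the correlations. Whole reads were recovered from the RPKM values (100% were whole multiples of 1 read within a relative tolerance of 0.001) and used for voom. The test was tried on simulated data. Groups were taken from the labels. P-values measure only the spread between these mice.

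The members and gene lists were chosen with earlier results of these data known. All members were described. From the lists, the genes open to naming were those called, at 0, lowest, or highest by mean RPKM. Tph2, Slc6a4, Maoa, Maob, S100a10, Adar, and Adarb1 were open to naming as well. Not all of these are named above. For members without overlap, the 3 genes most correlated with them were named. Slc18a2 and the genes that share exon bases with a receptor gene were named after their values were seen. The alternatives were equal medians, quantile normalization, pseudocounts of 0.01 and 1, an RPKM filter of 1 or none, 2 groups only, voom, the replicate block, no fold limit, and each mouse left out. Promoters came from RefSeq. Python 3.11.15, numpy 2.4.6, pandas 2.3.3, scipy 1.17.1, and matplotlib 3.10.9 were used.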

Additional observations from a re-analysis of the deposited data

How the results depend on the processing

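The number of called genes was 158, 128, and 91 (ICH against sham, feb against ICH, and feb against sham, in that order here and below) with a pseudocount of 1, 346, 287, and 263 with an RPKM of at least 1, and 3570, 3212, and 2478 without a fold limit. Leaving out each mouse gave 619 to 1299, 615 to 932, and 462 to 1150, with 1299 and 1150 without sham mouse 2 and 1030 for feb against sham without feb mouse 2. Equal medians moved the median of all genes between ICH and sham from 0.08 to -0.027, and changed the split of higher to lower calls from 423 and 312 to 296 and 443. For feb against sham, equal medians changed it from 461 and 178 to 300 and 252. With quantile normalization the splits were 317 and 406, and 295 and 245.

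The number of called receptor genes was 2, 2, and 0 without a fold limit, and 1 for feb against ICH with a pseudocount of 0.01 or with voom. It ranged from 0 to 1, 0 to 1, and 0 to 0 with each mouse left out, the exceptions being ICH mouse 3 (Htr3a) and ICH mouse 2 (Htr1d). Feb against sham turned to -0.01 and -0.04 for Htr1f and to -0.08 and -0.12 for Htr4 with equal medians and quantile normalization. Leaving out a mouse turned the sign of small differences. Between ICH and sham these ranged from -0.43 to 0.11 for Htr4, -0.18 to 0.9 for Htr5b, and -0.08 to 0.62 for Htr6. Between feb and ICH they ranged from -0.33 to 0.19 for Htr1a, -0.1 to 0.37 for Htr1b, -0.51 to 0.01 for Htr1f, -0.19 to 0.16 for Htr2c, -0.96 to 0.15 for Htr3a, -0.04 to 0.47 for Htr4, and -0.17 to 0.22 for Htr2b. Between feb and sham they ranged from -0.6 to 0.06 for Htr1d, -0.12 to 0.4 for Htr1f, -0.04 to 0.04 for Htr5a, -0.16 to 0.24 for Htr4, -0.23 to 0.02 for Htr7, -0.71 to 0.39 for Htr5b, and -0.36 to 0.34 for Htr6. The cause was not tested. Of 744 fold changes under alternatives, for the 10 members with Htr2b, Htr5b, Htr6, and Ddc, 697 kept their direction and side of the threshold. Many of these could not differ in direction. The filters, the fit of 2 groups, the replicate block, and removal of a mouse outside the contrast leave the fold change as it was. Most main values were also not called, so this count does not measure stability. Htr1d, Htr3a, Htr4, and Htr5b were not tested at an RPKM of at least 1. With the replicate number as a block the called genes were 717, 684, and 615 and the called receptor genes 0, 0, and 0. Same-numbered mice had correlations of deviations from -0.127 to 0.019, and not every mouse correlated best with its own number. With 3 mice per group, these values cannot tell whether same-numbered mice shared a step of handling. For the relations to regional markers, 2 pseudocounts and the removal of sham mouse 1, chosen after seeing the data, kept the direction of all 5 relations tried. Among the 10 members, depth limits Htr3a and Htr1d most, and 3 mice per group limit every test.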

Other observations

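Small RNA genes lie within the introns of Htr2c on the same strand. Snora35, a small nucleolar RNA of the brain, had a mean RPKM of 2.95 over the 9 mice and at most 18 reads in a mouse. The microRNA genes Mir764, Mir1912, Mir1264, Mir1298, and Mir448 had at most 8, 11, 7, 1, and 2 reads. None shares exon bases with Htr2c, and the libraries kept fragments longer than mature microRNAs, so these reads do not measure them.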
